A study of Rattus norvegicus with 4 samples.

Results

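Kidneys of 2 inbred rat strains were compared across genes: the spontaneously hypertensive rat (SHR), which develops high blood pressure by inheritance, and the Brown Norway rat (BN), which keeps a normal pressure. All non-control probe sets of the array made up the set examined, 15866 of the 15923 present. They were read on 4 arrays, 2 of SHR and 2 of BN, which are all the arrays of the series. The series asked what nicotine before birth does to the kidney, so each strain had 1 array of nicotine-exposed and 1 of saline-exposed animals. The 4 groups were male SHR exposed prenatally to nicotine, male SHR exposed to saline, male BN exposed to nicotine and male BN exposed to saline, all aged 9 weeks. Each array carried 1 pool of kidney RNA, made of 13 animals for SHR with nicotine and of 12 for each other group, 49 in all. A pool hides the spread between animals, and no strain had an array of animals left without any prenatal treatment. The strain difference given throughout is SHR minus BN on the log2 scale, averaged over both treatments.

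The kidney filters plasma in the glomerulus and recovers most of the filtrate in the proximal tubule, a cell rich in mitochondria and peroxisomes that burns fatty acids and amino acids. The loop of Henle, distal tubule and collecting duct then set the salt, water and acid content of urine. These later segments are where many hormones and drugs that alter blood pressure act. SHR and BN are the founder strains of a widely used panel of recombinant inbred rats, and several genes with an inherited loss or variant in SHR, Cd36 and Endog among them, were found through that panel.

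Signals were deposited in arbitrary units on a linear scale. Values under 44.5 were raised to that floor, and 7037 probe sets with a strain mean of at least 89.0 were tested with limma in an additive model of strain and treatment. Adjusted p-values are Benjamini-Hochberg values over all 7037. A fold is written as "at least" where a strain's signal lay under the floor on 1 or both arrays. On each array, 58.9% to 60.7% of probe sets were at or above the floor. Precision is limited by the small number of arrays. Markers of the nephron stood well above the floor, among them Umod of the loop of Henle, at 4043.8 to 5260.3, and the proximal phosphate carrier Slc34a1, at 3871.9 to 5024.0. None of 9 adrenal markers, and none of 22 lymphocyte, granulocyte and mast cell markers, reached 89.0 in either strain. Whole kidney was used, so fewer cells of a type and less RNA per cell cannot be told apart. A base difference between the strains under a probe can also change a signal, and it cannot be told apart from a difference in transcript level here. The ratio of 3' to 5' control signals for beta-actin was 1.34 and 1.39 in SHR and 1.49 and 1.54 in BN, and that of GAPDH was 1.11 and 1.0 against 1.09 and 1.07. Its part in the results below was not tested.

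With limma, 1273 of 7037 probe sets passed an adjusted p of 0.05, which is 18.1%. Of these, 610 were higher in SHR (8.67% of those tested) and 663 were lower (9.42%). Most differences were modest: the median fold among those that passed was 1.39. At least 1.5-fold apart were 213 higher and 211 lower, at least 2-fold 62 and 57, at least 4-fold 12 and 11, and at least 8-fold 5 and 3. The signals of the strains did not overlap for 4207 of the tested probe sets, or 59.8%, so a lack of overlap alone is a weak mark with this few arrays. Leaving out the SHR array of nicotine or of saline, 609 and 603 probe sets passed, and leaving out the BN array of nicotine or of saline, 373 and 394. The model leaves 1 residual degree of freedom, so its p-values reflect how these 4 pooled samples scatter and say nothing of single animals. Set side by side with no test, 4.17% of 7120 probe sets measured under saline were at least 1.5-fold higher in SHR and 3.95% at least 1.5-fold lower. Under nicotine these shares were 4.2% and 4.24% of 7143. Past 2-fold lay 1.15% and 1.14% under saline and 1.16% and 0.98% under nicotine, and past 3-fold 0.323% and 0.281%, and 0.322% and 0.294%. Counted by gene, through the brightest probe set of each, 945 of 5444 genes passed (17.4%), 442 higher and 503 lower, and the median difference over all genes was 0.00. This share of 17.4% is the background for each gene list below. It is not matched for signal: 12.6% of probe sets passed in the dimmest quartile of signal and 28.7% in the brightest. Members dim in both strains were not tested and are not in a list's median. Every list was taken up with earlier results of these data known, so no list's count is independent evidence.

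**Figure D1:**
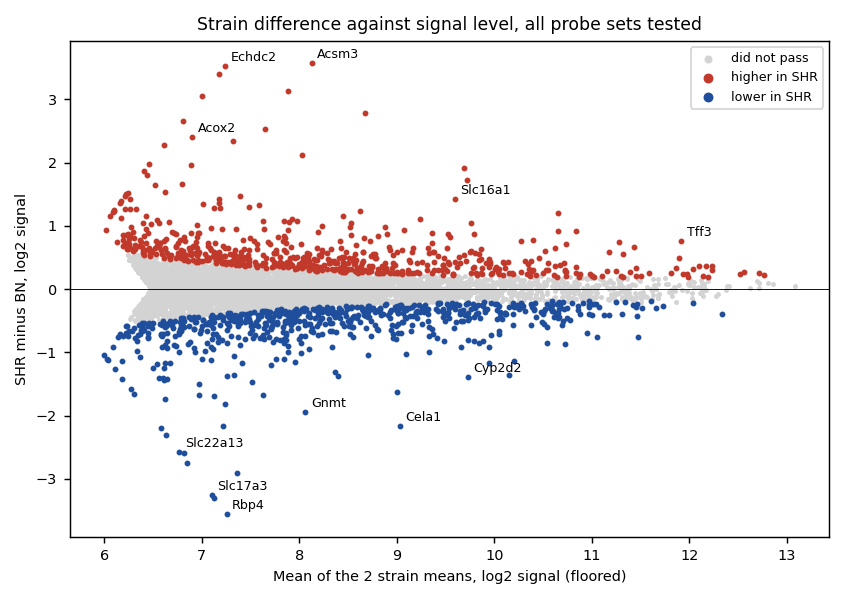
Each point is 1 of 7037 tested probe sets, with the mean log2 signal of both strains on the horizontal axis and SHR minus BN, in log2 units, on the vertical axis. Red points (610) passed and were higher in SHR, blue points (663) passed and were lower, and grey points did not pass. Smaller differences passed at high signal, and the widest differences lay at low to middle signal.

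The share that passed grew with signal, from 12.6% in the lowest quartile of mean signal to 28.7% in the highest. The median standard error dropped over the quartiles from 0.17 to 0.076 on the log2 scale, so the same small difference can pass in a bright gene and not in a dim one. Among probe sets that passed, the median size was 0.69 in the dimmest quartile and 0.35 in the brightest. Just inside the threshold lay Cdc34, Csnk2a1 and Ogdh, at adjusted p-values of 0.0494, 0.0496 and 0.0497. The other probe set of Cdc34, at -0.19, and the other 2 of Csnk2a1, at -0.06 and -0.19, did not pass. Just outside it lay Atg13, Cd74 and Folr1, at 0.0501, 0.0501 and 0.0506.

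Named genes that passed were ranked by size, leaving out any gene with another measured probe set going the other way. That rule left out 56 probe sets that passed, of 48 genes, some of them further apart than genes named below. In this ranking Acsm3 and Echdc2 were the genes furthest higher in SHR, and Rbp4 was the furthest lower. Acsm3, a mitochondrial enzyme that activates medium-chain fatty acids, read 1059.8 and 873.1 in SHR (nicotine, then saline, the order used throughout) against 85.4 and 77.1 in BN. It was 11.9-fold higher (adjusted p = 4.88e-14), with no overlap between strains. Echdc2, of the enoyl-CoA hydratase family, read 522.4 and 501.7 in SHR and 1.8 and 2.3 in BN, which puts both BN arrays at the bottom of the scale. It was at least 11.5-fold higher (adjusted p = 1.21e-12). Rbp4 is the plasma carrier of retinol that the proximal tubule takes back from the filtrate. It read 35.6 and 16.8 in SHR against 529.5 and 515.5 in BN and was at least 11.7-fold lower in SHR (adjusted p = 1.18e-12).

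For these 3 genes, the furthest apart on each side, the RefSeq promoter windows of build GRCr8 are shown, from 250 bases before to 50 bases after the annotated start of each gene. That reference is of a BN rat, so the windows show no SHR bases. Capitals mark 3 motifs searched on both strands, AGGTCA (the hexamer bound by many nuclear receptors, TGACCT on the other strand), GTTAAT (a hexamer of HNF1 sites, ATTAAC on the other strand) and TATAAA. The marked motifs do not overlap one another. The window of Acsm3 is chr1:183564402-183564701 on the plus strand, that of Echdc2 chr5:128144636-128144935 on the plus strand, and that of Rbp4 chr1:245313502-245313801 on the minus strand.
Acsm3: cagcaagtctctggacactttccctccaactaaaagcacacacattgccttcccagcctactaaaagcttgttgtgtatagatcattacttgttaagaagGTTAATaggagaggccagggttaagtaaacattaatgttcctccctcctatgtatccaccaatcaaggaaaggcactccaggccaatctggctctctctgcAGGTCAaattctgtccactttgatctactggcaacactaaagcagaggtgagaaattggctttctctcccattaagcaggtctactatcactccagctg
Echdc2: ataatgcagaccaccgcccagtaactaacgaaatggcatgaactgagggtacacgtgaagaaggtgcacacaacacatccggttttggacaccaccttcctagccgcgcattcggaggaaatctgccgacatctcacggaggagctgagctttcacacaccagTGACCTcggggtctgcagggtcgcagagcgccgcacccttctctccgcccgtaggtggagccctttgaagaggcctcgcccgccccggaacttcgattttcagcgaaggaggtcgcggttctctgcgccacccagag
Rbp4: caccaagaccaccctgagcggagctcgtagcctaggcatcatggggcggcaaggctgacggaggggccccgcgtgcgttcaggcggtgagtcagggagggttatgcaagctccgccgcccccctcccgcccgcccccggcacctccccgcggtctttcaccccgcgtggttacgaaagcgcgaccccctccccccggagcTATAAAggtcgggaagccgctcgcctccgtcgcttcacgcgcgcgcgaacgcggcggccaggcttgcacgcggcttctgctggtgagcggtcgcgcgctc
Acsm3 held 1 AGGTCA and 1 GTTAAT, Echdc2 held 1 AGGTCA on the minus strand, and Rbp4 held 1 TATAAA. The first hexamer, AGGTCA, was found in 13.6% of 369 matched promoters of genes higher in SHR, 17.2% of 425 of genes lower in SHR and 12.4% of 4617 of all genes tested. GTTAAT was found in 6.5%, 4.47% and 4.48% of the same sets, and TATAAA in 11.4%, 11.1% and 6.93%. Over all 27457 promoters in the RefSeq table the shares were 15.7%, 7.37% and 14.3%. These are counts of letters in a window, with no test.

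Several further genes on the higher side took part in lipid and steroid chemistry. Acox2, the peroxisomal oxidase of branched fatty acids and bile acid precursors, read 268.2 and 281.2 in SHR against 45.5 and 59.3 in BN. Cyp8b1, the sterol 12-hydroxylase, read 179.7 and 256.4 against 40.6 and 27.3. Cyp4a8, a fatty acid hydroxylase of the kidney, was measured by 2 probe sets, and these were 3.30-fold and 2.29-fold higher. The brighter one read 2424.4 and 2443.8 in SHR against 1136.1 and 994.7 in BN, and its close relatives of the Cyp4a family leave the assignment uncertain. Pla2g12a, a secreted phospholipase, read 148.1 and 264.8 in SHR against 44.8 and 87.6 in BN, a difference of 1.66 (SE 0.15). The saline value was above the nicotine value in each strain, and the strains did not overlap.

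The other genes among the 20 furthest higher had mixed roles. Slc16a1, the lactate and pyruvate carrier, read 1214.7 and 1319.7 against 592.8 and 377.2. Mmd, first known from maturing macrophages, was 2.50-fold higher (326.0 and 282.5 against 118.0 and 124.7). Akr1b8, an aldo-keto reductase, was 2.43-fold higher (193.2 and 266.1 against 99.6 and 87.3). Thumpd1, an RNA-binding protein, was 2.35-fold higher with close pairs in both strains (600.9 and 605.6 against 272.5 and 241.9). Ptn, the heparin-binding growth factor pleiotrophin, was at least 2.34-fold higher, with both BN arrays just under the floor at 42.5 and 42.9. Dusp23 and Kif13a, a phosphatase and a kinesin motor, were at least 2.62-fold and 2.35-fold higher, and in BN all their values lay under the floor. Rufy1, Irak1bp1, Gpm6a and Adap1 were 2.46-fold to 2.40-fold higher, and C18h5orf63 at least 2.77-fold. Ly6i, of a surface protein family with near-identical members, was 5.78-fold higher.

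**Figure D2:**
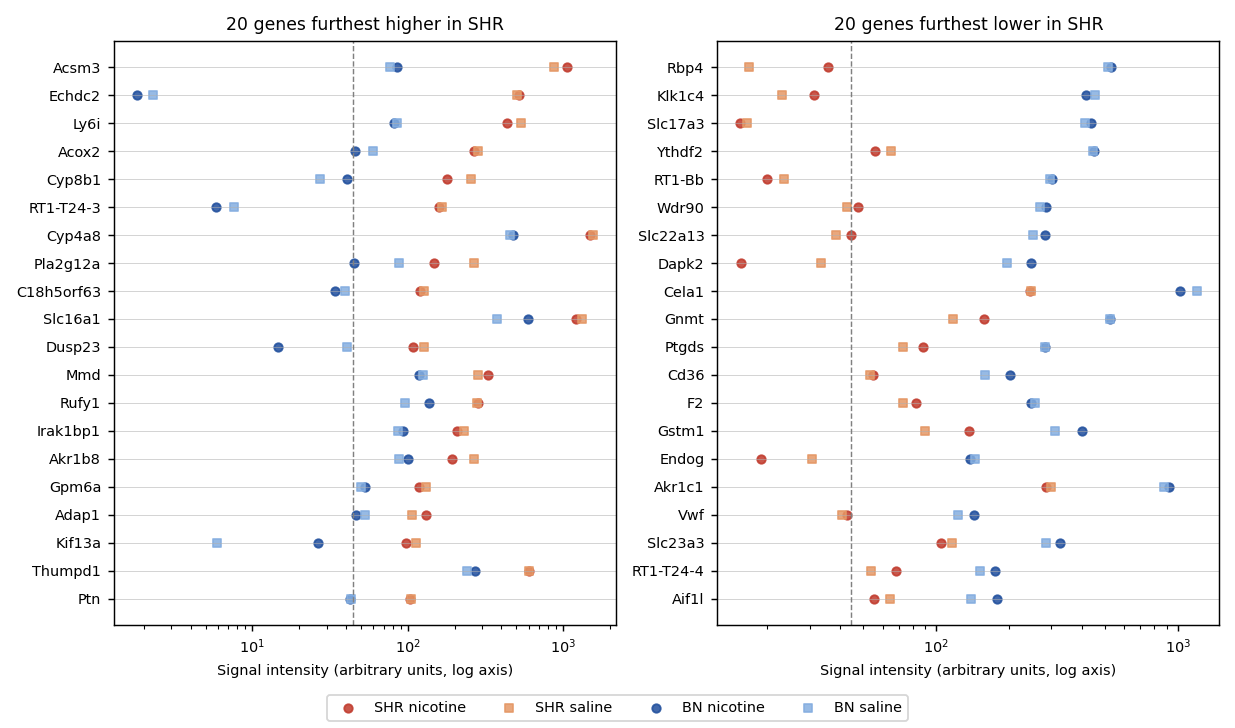
Signal intensity on a log axis (arbitrary units) on each of the 4 arrays for the 20 genes furthest higher in SHR (left) and the 20 furthest lower (right). Genes with another measured probe set going the other way are left out. Circles are nicotine arrays and squares saline arrays, red tones SHR and blue tones BN, and the dashed line is the floor of 44.5. Both arrays of a strain lie on the same side of the other strain in all 40 genes, as in 1262 of the 1273 probe sets that passed.

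Carriers and secreted enzymes were among the 20 genes furthest lower. Cela1, an elastase, read 245.5 and 246.9 in SHR against 1022.6 and 1198.6 in BN and was 4.50-fold lower in SHR. Slc17a3, a phosphate and urate carrier of the proximal tubule, read 15.4 and 16.5 in SHR against 436.9 and 414.4 in BN. Slc22a13, an organic anion carrier, read 44.4 and 38.5 against 282.4 and 251.3. Both carriers lay under the floor in SHR, and their folds are lower bounds of 9.56 and 5.98. Slc23a3, of the ascorbate carrier family, was 2.77-fold lower (104.5 and 115.8 against 326.3 and 284.5).

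Clotting genes stood among the furthest lower as well. F2, prothrombin, read 82.9 and 72.7 in SHR against 246.4 and 256.2 in BN, and was 3.24-fold lower (adjusted p = 6.79e-08). Vwf, the von Willebrand factor of endothelium and platelets, read 42.7 and 40.8 against 144.0 and 123.7. It was at least 3.0-fold lower. Both are also made outside the kidney: of 12 hepatocyte markers on the array 1 reached the limit of testing, Apob, which was 1.57-fold higher in SHR but did not pass with any array left out. Of 16 endothelial markers tested, Vwf was the 1 lower in SHR that passed, and Icam1, Esam and Kdr were higher. With any array left out, 0 to 1 were higher and 1 lower. The summed signal of the 24 endothelial markers on the array was 3443.4 and 3303.7 in SHR and 3246.6 and 3075.5 in BN. In the list of complement and coagulation, 3 of 13 tested were lower (F2, Vwf and the plasminogen activator Plat) and 2 higher (tissue factor F3 and urokinase Plau), and 2 to 3 lower and 0 to 1 higher with any array left out.

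The 20 furthest lower held further genes of mixed roles. Endog, a mitochondrial nuclease, read 18.9 and 30.5 in SHR against 137.5 and 144.4 in BN, at least 3.16-fold lower. Ptgds, which makes prostaglandin D2, read 88.3 and 73.1 in SHR against 281.7 and 282.1 in BN. Dapk2, a calcium-dependent kinase, read 15.6 and 33.4 against 247.8 and 196.7, and Wdr90 read 47.6 and 42.9 against 285.7 and 269.6. Akr1c1, an aldo-keto reductase acting on steroids, was 3.08-fold lower (284.9 and 298.7 against 920.4 and 878.7). Aif1l, an actin-binding protein, was 2.64-fold lower (55.2 and 64.6 against 178.1 and 139.7). The list of 20 measured candidate genes of SHR held 8 lower and 4 higher, with a median of -0.08. Like every list here, it was taken up with earlier results of these data known. It was drawn up from earlier work on these strains, so its count is no independent evidence, and 6 to 7 were lower and 2 higher with each array left out in turn. Inmt, which methylates amines such as tryptamine, was 2.57-fold lower (766.2 and 657.2 against 1773.5 and 1881.6). The pantetheinase Vnn1 was 1.63-fold lower, and Jag1, a Notch ligand, was 1.54-fold higher.

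Enzymes that break down amino acids and carry single-carbon units formed the list with the largest share lower in SHR among lists with at least 5 tested members. Of 57 tested genes, 29 were lower and 2 higher (54.4% passed, against 17.4% of all genes), and the list's median was -0.23 against 0.00 over all genes. All 29 were lower under saline and under nicotine alike, and both BN arrays lay above both SHR arrays for each of them. Passing largely fixes both: of all 1273 probe sets that passed, 1271 had the same sign under both treatments and 1262 did not overlap. Most differences were small: 7 of the 57 were at least 1.5-fold lower and 2 at least 2-fold lower. Leaving out each array in turn, 10 to 18 members passed as lower and 1 to 2 as higher.

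Gnmt, Gldc, Bhmt and Gcsh were the 4 furthest lower of the list. Gnmt, which uses S-adenosylmethionine to methylate glycine, read 158.1 and 117.4 in SHR against 525.0 and 524.0 in BN, a difference of -1.95 (SE 0.11, adjusted p = 5.77e-10). Gldc, the decarboxylase of the glycine cleavage system, read 171.6 and 161.8 against 352.3 and 391.6, a difference of -1.16 (SE 0.11). Gcsh, the lipoyl carrier protein of the same complex, read 706.3 and 637.8 against 1210.9 and 1147.6, a difference of -0.81 (SE 0.07). Bhmt, which remakes methionine with betaine, read 101.9 and 97.7 in SHR against 186.9 and 199.4 in BN. Cbs, which draws homocysteine into cysteine synthesis, was 1.52-fold lower, and Cdo1, which oxidises cysteine, 1.39-fold lower. Mat2a, which makes S-adenosylmethionine, was lower in both of its probe sets, by differences of -0.46 and -0.59.

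Members of other pathways in the list were lower too. Hpd, of tyrosine breakdown, read 2566.0 and 1875.9 in SHR against 3587.7 and 3796.7 in BN. Asl, the argininosuccinate lyase that makes arginine, was lower in both of its probe sets, at -0.74 and -0.69. Ivd and Dbt, of branched-chain amino acid breakdown, were 1.47-fold and 1.41-fold lower. The members higher in SHR were Odc1, the ornithine decarboxylase of polyamine synthesis, 1.39-fold (1116.6 and 1208.0 against 825.7 and 847.1), and Acmsd, of the tryptophan pathway. Among members that did not pass, Glul, Cth, Shmt2 and Aldh4a1 had differences between -0.03 and 0.00.

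**Figure D3:**
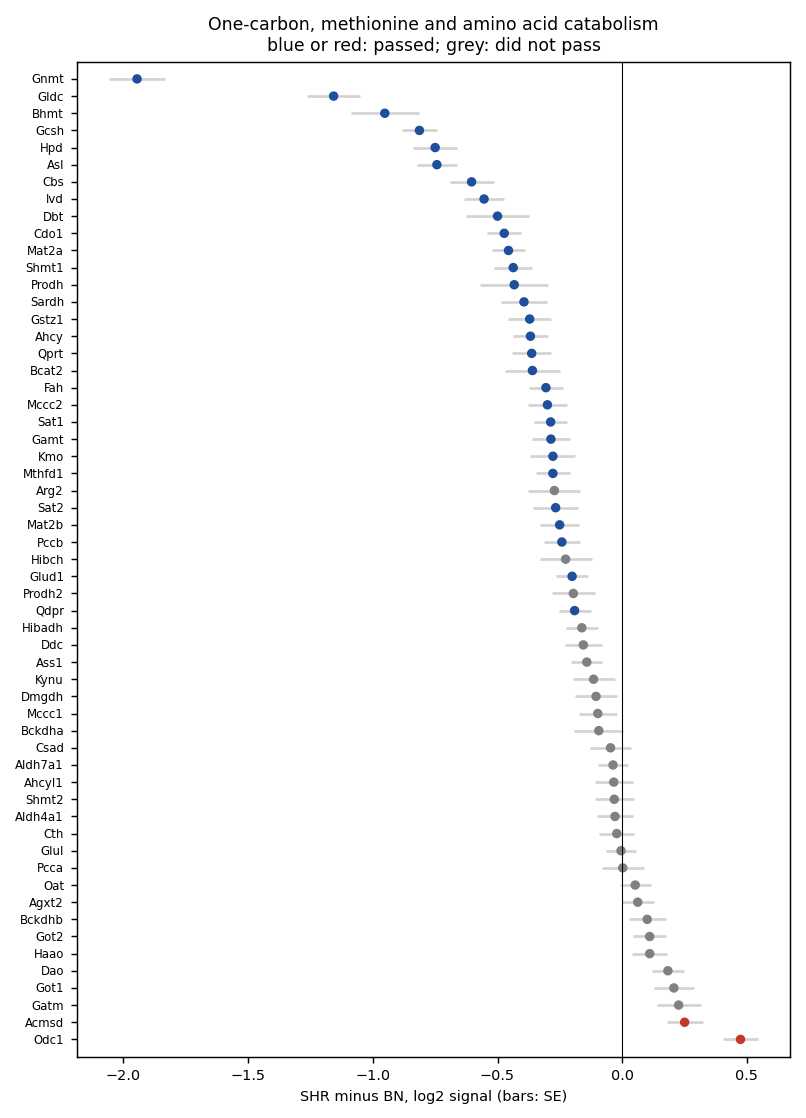
SHR minus BN in log2 signal for the 57 tested members of the list of amino acid breakdown and single-carbon transfer, with bars of 1 standard error. Blue points (29) passed and were lower in SHR, red points (2) passed and were higher, and grey points (26) did not pass; Gnmt lies furthest to the left at -1.95.

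Genes for taking up and storing fatty acids were lower in SHR in 7 of 16 tested and higher in none, with a median of -0.30. The array holds 24 of them, and with dim probe sets kept the median over all 24 was -0.03. Cd36, the fatty acid translocase that is defective in many SHR colonies, read 54.5 and 53.2 in SHR against 201.5 and 159.5 in BN, a 3.33-fold difference (adjusted p = 5.69e-07). Fabp5, an intracellular fatty acid carrier, read 193.0 and 227.4 against 540.5 and 544.2 and was 2.59-fold lower. Lpl, which frees fatty acids from lipoproteins, read 341.3 and 375.7 against 580.6 and 527.6 and was 1.55-fold lower. Vldlr, Apoe, Mgll and the acyl-CoA ligase Slc27a2 were 1.64-fold to 1.22-fold lower, though 1 of the 3 probe sets of Mgll, at 0.08, did not pass. With any 1 array left out, 3 to 5 members passed, all lower. The summed signal of 8 adipocyte markers was 631.7 and 730.3 in SHR and 889.1 and 770.9 in BN. Lpl, at the values above, is a large part of that sum, so the sum is no separate reading of fat cells. The part of fat cells in these values was not tested.

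Peroxisomal and bile acid enzymes split by gene. Of 23 tested, 8 were lower and 4 higher, with a median of -0.07. Besides Acox2 and Cyp8b1, the higher members were Phyh, which starts the breakdown of phytanic acid (1404.0 and 1141.6 against 959.4 and 933.9), and Hao2. The lower members included Hsd17b4, the main bifunctional enzyme of peroxisomal oxidation (1188.0 and 1232.3 against 1822.6 and 1834.4), Amacr, Ehhadh and Ech1, 1.51-fold to 1.31-fold. When arrays were left out 1 at a time, 2 to 8 members passed as lower and 2 to 4 as higher. Mitochondrial fatty acid oxidation had 3 higher and 4 lower of 29, a median of -0.03, and 1 higher and 1 to 3 lower with any array left out. In the small family of medium-chain acyl-CoA synthetases and glycine conjugation, Acsm5 was at least 2.23-fold higher like Acsm3, and Glyatl2 was 2.37-fold lower.

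Drug- and steroid-metabolising enzymes passed often and mostly on the lower side. In the list of cytochromes P450 and b5, 8 of 17 were lower and 2 higher, and among conjugating enzymes 12 of 29 were lower and 5 higher. Medians were -0.21 and -0.24. With dim probe sets kept they were 0.00 over 44 members and -0.06 over 45. Cyp2d2 read 552.2 and 494.7 in SHR against 1388.2 and 1363.2 in BN, and Cyp2e1 read 1859.5 and 1434.5 against 2832.7 and 2690.7. Cyp2c11, the male-specific steroid hydroxylase of rat liver, read 811.9 and 623.6 against 1288.9 and 1221.0. The electron carrier Cyb5a was 1.25-fold lower. Of Cyb5b, the brightest probe set was 1.70-fold lower, and another, at 0.11, did not pass. Of the glutathione transferases, Gstm1, Gstm2, Gstk1 and Gstp1 were 3.17-fold to 1.48-fold lower, while Gsta1 was 1.46-fold higher (3065.2 and 3140.6 against 2234.9 and 2016.9). Sulfotransferases also parted, with Sult1a1 1.88-fold lower and Sult1b1 1.90-fold higher. The glucuronosyltransferase Ugt2b35 was 1.97-fold higher. Many of these genes have near-identical relatives, so the signal may belong to a relative. Without 1 array in turn, the P450 list had 4 to 7 lower and 2 higher, and the conjugation list 6 to 11 lower and 4 to 5 higher.

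**Figure D4:**
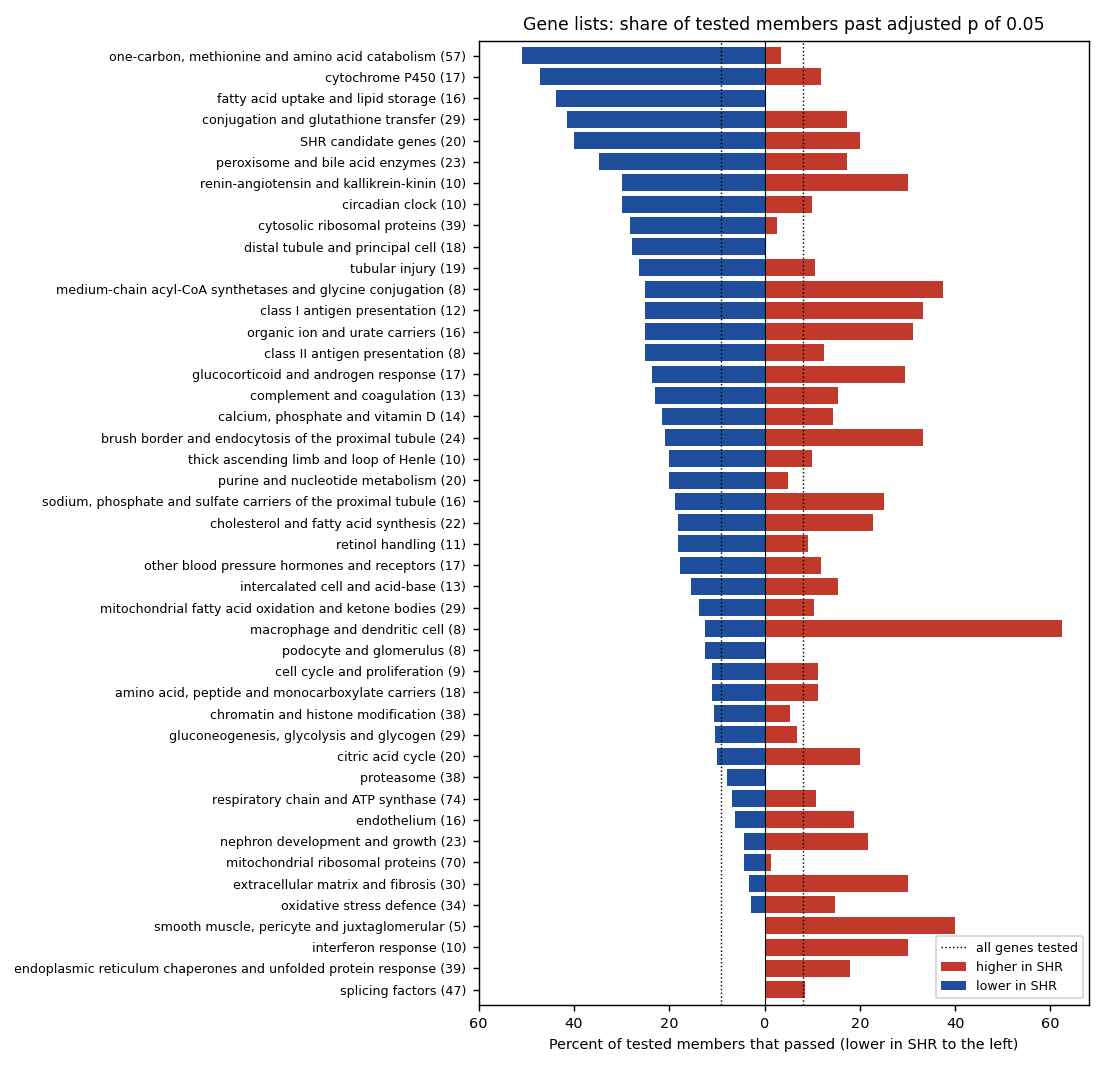
Percent of tested members that passed as higher (red, right) or lower in SHR (blue, left), for each gene list with at least 5 tested members, with the number tested in brackets. Dotted lines mark the shares over all genes, 8.12% higher and 9.24% lower. Amino acid breakdown reaches furthest to the left and the macrophage list, with 8 genes, furthest to the right.

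Most macrophage genes bright enough to be tested stood higher in SHR. Of 8 tested, 5 were higher and 1 lower, with a median of 0.44. The array holds 23 macrophage markers, and with dim probe sets kept the median over all 23 was 0.06. Lyz2, the lysozyme of phagocytes, read 1742.4 and 1507.3 in SHR against 1044.3 and 869.2 in BN, 1.70-fold higher. The complement genes C1qa and C1qc, made by tissue macrophages, were 1.88-fold and 1.57-fold higher. Fcgr3a and Fcer1g, parts of antibody receptors, were 1.43-fold and 1.29-fold higher. Lgals3, which injured tubules also make, was 1.41-fold lower. The summed signal of the 23 macrophage markers on the array was 3586.3 and 3205.0 in SHR and 2547.0 and 2265.1 in BN. Lyz2, at the values above, is part of that sum. With each array left out in turn, 1 to 3 passed as higher and none as lower.

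Interferon-induced genes had 3 of 10 higher and none lower, with a median of 0.29. The array holds 28 of them, and with dim probe sets kept the median over all 28 was 0.12. Irf7, a master regulator of the interferon response, read 180.7 and 158.8 against 76.1 and 109.7. Ifi27 and the virus-tethering protein Bst2 were 1.51-fold and 1.42-fold higher. Leaving out each array in turn, 0 to 3 passed.

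The major histocompatibility genes, whose haplotype is inherited as a block and differs between inbred strains, went both ways. In class II, RT1-Bb read 20 and 23.4 in SHR against 301.6 and 295.9 in BN and was at least 6.71-fold lower. RT1-Db1 was 1.64-fold lower and RT1-Da 1.25-fold higher. The probe sets of RT1-Ba parted: one read 313.1 and 249.9 in SHR and 27.5 and 5.2 in BN, and the other 132.7 and 142.2 against 199.0 and 152.8, which did not pass. In class I, RT1-T24-3, RT1-CE12, RT1-A3 and RT1-CE16 were higher and RT1-T24-4, RT1-CE10 and RT1-S3 lower, the last in 1 of its 4 probe sets, the brightest. RT1-T24-3 read 159.2 and 164.8 in SHR and 5.8 and 7.6 in BN, while RT1-T24-4 read 68.5 and 53.9 against 175.1 and 152.2. These genes are near-identical and variable in sequence, so each value is uncertain as to gene.

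The list of endoplasmic reticulum chaperones and stress genes also holds cytosolic members. Of 39 tested, 7 were higher and none lower, with a median of 0.11. The share of 17.9% is near the background of 17.4%, which counts both directions, and 8.12% of all genes were higher. Creld2 and Manf, both secreted on reticulum stress, led with 2.02-fold and 1.67-fold. Creld2 read 170.4 and 181.9 in SHR against 83.2 and 91.4 in BN, and Manf read 310.1 and 290.1 against 183.1 and 177.0. Hspa5 (BiP), Hsp90b1 and Calr, which fold secreted proteins, followed at 1.55-fold, 1.48-fold and 1.35-fold. The cytosolic co-chaperones Dnajb1 and Dnaja1 were 1.30-fold and 1.28-fold higher. With any 1 array left out, 5 to 6 passed as higher and 0 to 1 as lower.

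Matrix genes leaned higher, 9 of 30 higher and 1 lower, with a median of 0.08. Col3a1, a fibrillar collagen, read 317.9 and 345.1 in SHR against 212.0 and 192.0 in BN (1.64-fold). Ccn2, the connective tissue growth factor, read 604.8 and 612.3 against 343.6 and 428.3 (1.59-fold). Col5a2, Col6a3 and Col4a1 were 1.52-fold, 1.42-fold and 1.19-fold higher, and Tgfbi was 1.47-fold lower. Timp3, a protease inhibitor of the matrix, was higher in all 4 of its probe sets, by 0.39 to 0.50. Of the 3 probe sets of osteoglycin, Ogn, those reading 239.2 and 226.2 against 71.8 and 50.2, and 215.5 and 129.8 against 58.2 and 57.1, were higher. The third did not pass and read 83.3 and 79.5 against 108.3 and 91.4. When arrays were left out 1 at a time, 3 to 5 passed as higher and 0 to 1 as lower.

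Growth factor genes of the kidney showed 5 of 23 higher and 1 lower. The brighter probe set of Igf1 was 1.57-fold higher (179.8 and 160.7 against 118.1 and 99.3), while its other one did not pass and differed by -0.06 (89.1 and 130.1 against 116.4 and 108.6). Its binding protein gene Igfbp3 was higher in both probe sets, by 0.61 and 0.56, and the receptor gene Igf2r was 1.24-fold higher. Gfra1, the receptor for GDNF, was 1.56-fold higher, and Bmp7, which maintains nephron progenitors, was 1.26-fold lower. The list had 1 to 3 higher and 0 to 1 lower with any array left out. Signals of smooth muscle and pericyte markers summed to 1427.1 and 1413.8 in SHR and 1250.7 and 1252.9 in BN. Of 5 such markers tested, Smtn and Mylk were higher, neither of them with any array left out, and their part in the matrix values was not tested.

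Among blood pressure systems, the kallikreins differed most. Klk1c4 read 31.3 and 22.9 in SHR against 419.0 and 456.7 in BN, at least 9.83-fold lower. Klk1b3 read 795.9 and 588.6 against 1411.2 and 1080.4, and Klk1, the tissue kallikrein that frees kinins, read 982.1 and 798.2 against 1207.2 and 1263.3. The 3 genes are near-identical neighbours, so the signal of one may stand for another. Peptidases that trim angiotensins on the brush border were higher: Anpep, aminopeptidase N, read 3074.6 and 3393.8 against 1956.9 and 1893.3 (1.68-fold), and Enpep, aminopeptidase A, was 1.27-fold higher. In all, 3 of 10 tested genes of this group were higher and 3 lower, and 1 to 2 higher and 1 to 3 lower with any array left out. The enzymes that clear inhibitors of nitric oxide synthase parted, with Ddah1 1.37-fold higher and Ddah2 1.53-fold lower. Nox4, the NADPH oxidase of tubules, was 1.39-fold higher (249.5 and 248.0 against 180.4 and 177.4). The calcium-sensing receptor Casr was 1.98-fold lower (86.8 and 68.5 against 146.5 and 159.7).

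Markers of the nephron segments differed in both directions. In the podocyte, Podxl was 1.47-fold lower (256.3 and 251.3 against 380.4 and 364.6), while Nphs1 and Wt1 were under the limit of testing. In the proximal tubule the endocytic receptors parted: Lrp2 (megalin) was 1.23-fold higher and Cubn (cubilin) 1.48-fold lower. Cubn read 941.2 and 983.2 in SHR against 1410.2 and 1437.5 in BN. The phosphate carrier Slc34a1 and the glucose carrier Slc5a2 were 1.28-fold and 1.30-fold higher, and the water channel Aqp1 was at 3924.5 and 3798.1 against 3852.2 and 3949.5, which did not pass. The list of brush border and endocytosis had 8 higher and 5 lower of 24, and 2 to 5 higher and 4 lower without 1 array in turn.

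In the thick ascending limb, Slc12a1, the furosemide-sensitive sodium, potassium and chloride carrier, read 531.5 and 515.0 in SHR against 849.7 and 929.9 in BN. It was 1.70-fold lower (adjusted p = 1.05e-06), while Umod, uromodulin of the same cells, was 1.30-fold higher (5255.5 and 5260.3 against 4076.2 and 4043.8). Further down, the thiazide-sensitive carrier Slc12a3 was 1.25-fold lower (293.3 and 350.0 against 400.1 and 400.7). The water channels Aqp2 and Aqp3 of the principal cell were 1.33-fold and 1.23-fold lower, and Fxyd4, a modulator of the sodium pump there, was 1.69-fold lower (145.7 and 174.0 against 267.8 and 270.0). The list of distal and principal cell genes held 5 lower and none higher of 18, with a median of -0.01. With any array left out, 1 to 3 of the 18 passed, all lower. The distal calcium binder Calb1 and the sodium channel subunit Scnn1a did not pass, at 0.03 (SE 0.07) and 0.11 (SE 0.14). In the intercalated cell, the anion exchanger Slc4a1, also a red cell gene, was 1.34-fold higher (the summed red cell markers read 1133.5 and 1371.3 in SHR and 1561.3 and 1101.1 in BN), and Slc26a4 did not pass at -0.33 (SE 0.13).

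Carriers for organic ions and urate split in the same way, with 5 higher and 4 lower of 16. Beside the low signals of Slc17a3 and Slc22a13, the carnitine carrier Slc22a5 was 1.51-fold higher (978.5 and 1149.8 against 699.0 and 709.5). Slc22a23 was 1.65-fold higher, and Slc22a6 and Slc22a2, the main drug uptake carriers for anions and cations, were 1.23-fold and 1.15-fold higher. Slco2a1 and Slc22a7 were both 1.29-fold lower. Leaving out each array in turn, 1 to 3 passed as higher and 2 as lower. In purine and pyrimidine metabolism, 4 of 20 were lower and 1 higher, and 3 lower and 0 to 1 higher with any array left out. Xdh, the enzyme that makes urate, was 1.61-fold lower (420.0 and 393.3 against 662.5 and 648.1), and Upb1 and Dpys, of pyrimidine breakdown, were 1.58-fold and 1.52-fold lower.

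Genes of tubular injury gave 5 lower and 2 higher of 19, and 1 to 3 lower and 1 higher with any array left out. Tff3, a secreted trefoil peptide, read 5118.7 and 4939.8 in SHR against 3027.2 and 2934.7 in BN, 1.69-fold higher. Anxa3 was 1.91-fold lower and Cst3, cystatin C, 1.36-fold lower. Among clock-controlled genes, Dbp was at least 2.39-fold lower, but its BN values were far apart (43.7 and 43.9 against 73.6 and 154.4). Nr1d1 behaved alike, at 94.7 and 71.2 against 95.4 and 195.9, while Bhlhe40 was 1.47-fold higher. The hour of tissue collection is not given in the sources used here.

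Of 70 mitochondrial ribosomal proteins, 3 were lower and 1 higher (5.71%, against the background of 17.4%), and of 38 proteasome genes 3 were lower and none higher (7.89%). The respiratory chain had 8 higher and 5 lower of 74, with a median of 0.04, and its share of 17.6% is near the background. Of 47 splicing factors, 4 were higher and none lower (8.51%), a share below the background. With any array left out, the respiratory chain gave 0 to 3 higher and 0 to 4 lower, splicing factors 0, proteasome genes 0 to 2 lower and mitochondrial ribosomal proteins 1 to 2 lower and 0 to 1 higher. Cytosolic ribosomal proteins had 11 lower and 1 higher of 39 (30.8%) and a median of -0.15. In the brightest quartile of all tested probe sets, 28.7% passed. No ribosomal gene among those that passed was more than 1.32-fold apart, the signals may be shared with processed copies, and 1 to 7 passed as lower without 1 array in turn. Citric acid cycle genes had 4 higher and 2 lower of 20 (30.0%), with Sdha and Aco1 1.32-fold lower and Suclg1 1.32-fold higher, and 1 to 2 higher and 1 to 3 lower with any array left out.

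The array measures some genes more than once, which gives a check of the signals within these 4 arrays. Of 568 genes with 2 or more tested probe sets, the 2 brightest went the same way in 367 (64.6%). Where the brightest had passed (115 genes), the second went the same way in 97 (84.3%). Both passed in 48 genes, 46 in the same direction and 2 in opposite ones. In all, 50 genes had at least 2 probe sets that passed and went 1 way, among them Sorl1, Ccnd1, Atp2a2 and Timp3 with at least 3 each.

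In 3 genes, probe sets that passed went opposite ways: Rab14, Ssr3 and Tmem248. For Rab14, a small GTPase of endosomes, the brightest probe set read 726.9 and 862.1 in SHR against 1673.3 and 1823.4 in BN. The other 3 read higher in SHR, by 0.57, 0.95 and 1.36. Ythdf2, a reader of methylated adenosine in RNA, had one probe set at 55.8 and 64.9 against 449.0 and 448.3, and another at 137.7 and 133.4 against 178.1 and 130.6. The differences of the Ythdf2 probe sets were -2.90 and -0.17, and the second did not pass. Dusp6, a phosphatase of the MAP kinase path, had one probe set 5.05-fold higher and 2 that did not pass, at -0.18 and 0.20. Ythdf2 is among the 20 genes furthest lower, and Dusp6 was named after its values were seen. The difference of such genes cannot be tied to the whole transcript. Of the 40 genes furthest apart, 38 rest on 1 measured probe set and have no such check. The ranking itself left out genes whose measured probe sets opposed each other, such as Rab14 and Dusp6.

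**Figure D5:**
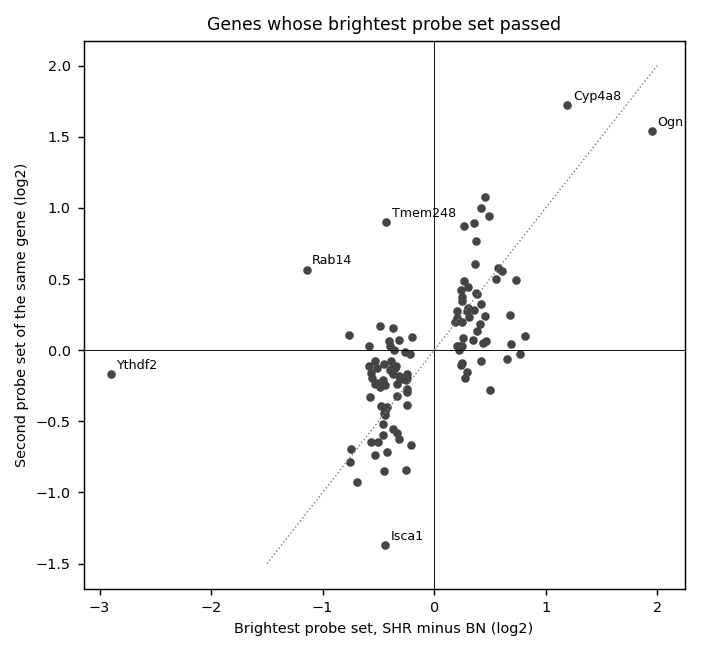
SHR minus BN in log2 signal for the second-brightest probe set of a gene (vertical axis) against the brightest (horizontal axis), for the 115 genes whose brightest probe set passed. The dotted line marks equal values; 97 points share a sign on both axes, while Rab14 and Tmem248 lie in the upper left and Ythdf2 lies far to the left near 0.

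Genes that passed were also placed in order along the chromosomes of the RefSeq annotation of GRCr8. Of 5405 pairs of tested neighbours, both passed in the same direction in 108 (2.0%) and in opposite directions in 67 (1.24%), where 17.3% of the 5426 placed genes passed. Leaving out families of near-identical genes gave 92 and 62 of 5310 pairs. In 15 places at least 3 tested neighbours in a row passed in 1 direction, 47 genes in all. The longest run, of 5, was higher in SHR and held Trak1, Cck, Ss18l2, Higd1a and Cyp8b1. Apart from Cyp8b1, its members were 0.26 to 0.76 apart on the log2 scale.

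Some runs joined genes named above. Zfp354a, a zinc finger gene of kidney injury, read 473.1 and 574.7 in SHR against 207.2 and 263.8 in BN (difference 1.16, SE 0.09), next to Rufy1 and Hnrnph1. Mat2a lay beside Capg and Retsat, and Retsat, which saturates retinol, read 1142.7 and 1077.5 against 2064.6 and 1955.7 (difference -0.86, SE 0.07). Asl lay beside Crcp and Tmem248, and Dusp23 between Tagln2 and Apcs. S100a4, S100a6 and Sprr1a were all lower, with S100a6 at 587.4 and 357.6 against 917.9 and 901.8. A separate run held S100a11, S100a10 and mrpl9, also lower. Col3a1, Col5a2 and Tpp2 were all higher. Oxnad1 was the furthest apart in its run with Ncoa4 and Parg (97.6 and 104.1 against 270.3 and 246.1).

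Among probe sets that passed, the strain difference was mostly alike under both prenatal treatments. Of the 1273 probe sets that passed, 1271 had the same sign under saline and under nicotine, which selection on the average of both largely fixes. The size of the difference changed between treatments by a median of 0.14 on the log2 scale, and 283 were at least 1.5-fold apart under each. A change between treatments counts as noise in the model, so passing favours small changes too. Probe sets that did not pass are not in this median. In 14 probe sets the difference changed by at least 1 on the log2 scale, and for most of these 1 array stood away from the other 3. Klf10, an early response gene of TGF-beta, read 137.0 and 41.3 in SHR and 143.3 and 147.3 in BN, so the SHR saline array alone was low. Icam1, the leukocyte adhesion molecule, read 128.0 and 125.6 in SHR and 126.2 and 18.5 in BN, with the BN saline array alone low. Tnfrsf11b, the decoy receptor osteoprotegerin, read 80.0 and 146.5 against 198.8 and 156.3, and Scarf2 read 147.1 and 151.8 against 56.6 and 127.2. With 1 array per strain and treatment, the difference between treatments in these genes was not tested.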

How the data were processed

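Members and gene lists were chosen with earlier results of these data known. The authors deposited MAS5 signal intensity, per the submitters' processing notes (version not given in the sources used here), for 15923 probe sets. All arrays had a 2% trimmed mean of 150.0 as deposited and were not scaled further. Leaving out 57 control probe sets, 12783 of the others had 1 gene symbol, 312 several and 2771 none in the platform annotation, and only those with 1 were named. The floor was the 40th percentile, 44.5; probe sets entered if a strain mean reached 2 times it, 89.0. limma 3.58.1 in R 4.3.3 fitted strain and treatment to log2 values (lmFit, eBayes with an intensity trend, Benjamini-Hochberg at 0.05, 16.51 prior degrees of freedom). On simulated data for this comparison over 7037 probe sets it recovered 63 of 67 changes of 1.5-fold, 67 of 67 of 2-fold and 66 of 66 of 3-fold, with 12 false calls. The simulated noise was normal and independent, with a spread set by signal level from these same arrays and no effect of treatment. Far fewer probe sets were changed than passed in the real data. It therefore checks the procedure and cannot show how many of the real calls are right. Nothing says that arrays of a strain came from separate litters. Named are the 20 probe sets furthest apart in each direction (same direction under both treatments and in the gene's other measured probe sets), up to 4 members per list, runs of neighbours, segment markers and the genes nearest the threshold. Other named genes were chosen after their values were seen. Tables were handled in Python 3.11.15.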

Additional observations from a re-analysis of the deposited data

Results flagged for a closer look

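For 11 gene lists the median difference, SHR minus BN on the log2 scale, had one sign under nicotine and the other under saline. These were brush border and endocytosis (0.028 under nicotine, -0.01 under saline), distal tubule and principal cell (-0.139, 0.006), organic ion and urate carriers (-0.015, 0.06), and amino acid, peptide and monocarboxylate carriers (0.022, -0.054). The hormone lists were renin-angiotensin and kallikrein-kinin (-0.039, 0.086), other blood pressure hormones and receptors (-0.029, 0.049), and glucocorticoid and androgen response (0.034, -0.154). The others were complement and coagulation (-0.002, 0.133), nephron development and growth (-0.012, 0.065), proteasome (0.016, -0.03), and calcium, phosphate and vitamin D (-0.069, 0.127). Each value comes from 1 array per strain, and the difference between the treatments was not tested.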

How the results depend on the processing

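No paired analysis was possible because each group has 1 array and its number only names it. The count of probe sets that passed, 1273, was 744 after quantile normalization, 612 when the variance model ignored signal level, and 0 when dim probe sets were kept (limma; 1719 had an unadjusted p under 0.05). It was 415 with no filter and no floor, a setting chosen after seeing the data. Leaving out 1 array in turn, with strain as the only factor and the lone array assumed to vary like the others, gave 373 to 609, against 1041 with strain only and all arrays. Of the 1273, 366 to 580 passed without 1 array. The 119 that passed and were at least 2-fold apart became 212 with the floor at the 20th percentile, 72 at the 60th, 70 with a constant added in place of the floor, 73 without filter and floor, 75 with a stricter filter, 0 with dim probe sets kept, and 78 both with 1 probe set per gene and with the mean over probe sets, where fewer features are tested. Among segment markers that did not pass, the sign depended on the array left out: Aqp1 ranged from -0.038 to 0.009, Calb1 from -0.114 (without SHR saline) to 0.177 and Scnn1a from -0.105 (without BN saline) to 0.33. Aqp1 was also 0.009 without SHR saline and 0.003 without BN saline. With the mean over probe sets Aqp1 was 0.035 and Tmem248, whose probe sets oppose each other, 0.236. Of 216 named genes, 134 to 139 kept their side of the threshold without 1 SHR array and 106 to 111 without 1 BN array; of the 40 furthest apart, 39 to 40 passed without 1 array, 40 after quantile normalization and 0 with dim probe sets kept. The cause of these changes was not tested.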
